A study of Mus musculus with 4 samples.

Results

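The genes described here are 10 components and modulators of Wnt signalling, measured in mouse lenses in which the gene of the RNA-binding protein CELF1 was conditionally deleted and in Control lenses. They were taken by name, as all probes whose gene symbol in the deposited normalized table is Sfrp1, Sfrp2, Dkk3, Fzd1, Fzd3, Fzd6, Lrp5, Lrp6, Axin2 or Tcf7l2. This gave 22 probes for the 10 genes, among 45263 probes and 28855 gene names used in all. Gene expression was measured on Illumina MouseWG-6 v2.0 BeadChips, which report the fluorescence intensity of labelled RNA bound to beads that each carry a probe of 50 bases. Each of the 4 arrays held RNA of 1 lens at postnatal day 6, with Celf1 cKO replicates A and B (n = 2) and Control replicates A and B (n = 2). Celf1 cKO mice carried a germline knockout allele, Celf1 lacZKI, and a conditional allele whose exon 5 is removed by the Pax6GFPCre transgene, which drives Cre in the lens lineage from the placode stage and also in the pancreas. Control mice were Celf1 lacZKI/+, so that the mice of both groups carried 1 lacZKI allele throughout the body, and the background was a mixture of C57BL/6 and FVB. No Cre transgene is named for the Control mice, so that Cre and loss of the second Celf1 allele cannot be told apart.

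Wnt ligands are secreted glycoproteins that bind Frizzled receptors. In the canonical branch, Frizzled and the co-receptors LRP5 and LRP6 act together to stop the destruction complex, built on AXIN and APC, from degrading β-catenin, which then enters the nucleus and activates transcription with TCF and LEF factors. A further branch uses Frizzled without LRP5 or LRP6 and, with Vangl, Celsr and Prickle proteins, aligns cells within the plane of a tissue. In the lens, the canonical branch is known for its place in the epithelium and the planar branch for the orientation of fiber cells.

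Among the 10 genes, the receptor Fzd6 was elevated in Celf1 cKO lenses, with a fold change of 1.63, and it was the only member that passed the test. Sfrp1, Dkk3, Fzd3, Axin2 and Tcf7l2, with a probe above background on all 4 arrays, and Sfrp2, above background on 3, did not pass, with log2 fold changes between -0.29 and 0.16. The probes that carry the symbols of the receptor Fzd1 and the co-receptors Lrp5 and Lrp6 were not detected on enough arrays to be tested. A gene was called when its limma adjusted p was under 0.05, its log2 fold change lay beyond 0.58 in either direction and its log2 signal averaged more than 4.6. Of the 11519 genes tested, 1342 were called, which is 11.7% of them, with 693 elevated (6.02%) and 649 reduced (5.63%). The 1 call among 7 tested members is to be read beside that share. The median log2 fold change of the 7 members was 0.0049, and that of all genes was 0.0097. The median size of the change was 0.23 for the 7 members and 0.25 for all genes.

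The arrays differed in brightness between the groups, with 16261 and 16925 probes detected in cKO lenses and 14542 and 14180 in Control lenses. With 4 arrays, genotype and brightness cannot be told apart, and the balance of the calls depended on the scaling: 51.6% of calls were elevated after quantile normalization, 97.7% with no normalization between arrays and 24.8% when the arrays were brought to a shared median of the probes detected on all of them. Celf1 itself, read by 4 probes named Cugbp1 in the files, was reduced, with log2 signals of 7.45 and 6.95 in cKO lenses A and B against 8.71 and 8.55 in Control lenses A and B, which differed by -1.43 ± 0.19 (SE, limma adjusted p = 0.0098). The call was lost when Control B was left out (adjusted p = 0.056) and with no detection filter (adjusted p = 0.072), and the difference was -0.60 with no normalization between arrays. The files do not say in which exons these probes lie, and a further Celf1 probe, named 1600010O03Rik in the files, was detected on no array. Xist, expressed from the inactive X chromosome, exceeded its Control signal at least 6.09-fold in cKO lenses, and the Y-linked Ddx3y had log2 signals of 6.81 and 4.82 in cKO lenses A and B against 8.99 and 8.82 in Control lenses. It was detected on all 4 arrays, and the cKO lenses lay far apart, with cKO A holding signal of both genes. The genotypes thus also differed in sex-linked transcripts, and genotype and sex cannot be told apart. Of 10 lens fiber markers 8 were tested, while Gja3 was detected on no array and Bfsp1 had no probe by name. Of the 8, 7 had lower means in cKO lenses and 1 was called, Bfsp2, reduced. All 4 tested markers of lens epithelium had lower means in cKO lenses, and 1 of them was called, Foxe3, with a log2 fold change of -0.79. Their summed linear signal was 825 and 964 in cKO lenses and 1321 and 1035 in Control lenses, and Pax6 was detected on no array. The sum was weighted to Gja1, the brightest of them, whose groups overlapped. Its log2 signals were 9.05 and 9.63 in cKO lenses and 9.86 and 9.27 in Control lenses. Of the other lists, 1 of 5 vessel markers (Emcn) and 1 of 3 macrophage markers (Cd68) were elevated. Means were lower in cKO lenses for 3 of the 5 vessel markers and for 2 of the 3 macrophage markers. Cd68 was detected on the cKO arrays only. Of 3 blood markers 2 had lower means in cKO lenses, and 1 of these was called, Slc4a1, reduced. The 1 pigment cell and 1 muscle marker tested were not called, and none of the retina, mesenchyme, cornea or skin markers reached the test. The part of these differences in the results that follow was not tested. In whole lenses, fewer cells of a type and less RNA per cell cannot be told apart.

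The probes of Fzd6 and Tcf7l2 are shown because the findings for these genes turn on what their probes bind. Both Fzd6 probes bind the same stretch of the transcript. They share 37 of their 50 bases with 1 difference, the substitution A46G, where the base of probe 4180091 stands first, the base of probe 2750053 last, and the position is counted from 1 at the 5′ end of probe 4180091. The aligned 30 bases at the end of that overlap are printed 5′ to 3′, with the differing base in capitals.
Fzd6 probe 4180091, bases 21 to 50: aagggcagagtcagagttgggcaggAagag
Fzd6 probe 2750053, bases 8 to 37: aagggcagagtcagagttgggcaggGagag
Of the 5 Tcf7l2 probes, the one that was detected overlaps one that was not, by 34 bases without a difference. The leading 30 bases of each are printed 5′ to 3′, with the part that they share in capitals.
Tcf7l2 probe 5050717, detected on 0 arrays: ccattctgtaaaacaaGACTTGAACATTAG
Tcf7l2 probe 4250328, detected on 4 arrays: GACTTGAACATTAGCGAGAGGGTCTGAGCA
The files place Fzd6 probe 2750053 on chromosome 15 at 38869455 to 38869504 (plus strand), and the Tcf7l2 probes on chromosome 19 at 56007384 to 56007433 and 56007399 to 56007448 (plus strand). These Tcf7l2 positions imply an overlap of 35 bases, where the sequences match over 34. The files name no genome build and do not say whether a probe lies in coding sequence or in a UTR.

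Detection sets what can be said of each gene. A probe was counted as detected on an array when its detection p-value, which ranks its intensity against that of negative control beads, was under 0.05. Of the 22 probes, 11 were detected on all 4 arrays, 1 on 3 arrays, 1 on a single array and 9 on none. The 12 probes detected on at least 2 arrays were retained, which were 2 for Sfrp1, 1 for Sfrp2, 3 for Dkk3, 2 for Fzd3, 2 for Fzd6, 1 for Axin2 and 1 of 5 for Tcf7l2.

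**Figure D1:**
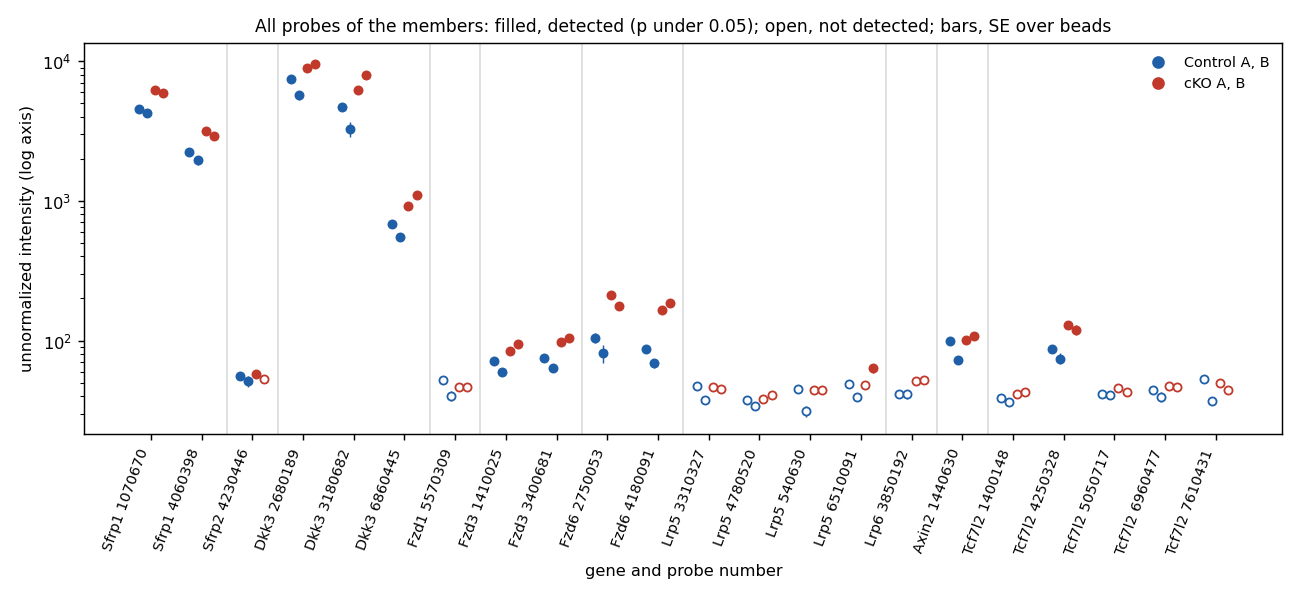
Unnormalized intensity (log axis) of all 22 probes of the members on the 4 arrays, with Control A and B in blue and cKO A and B in red. Filled points were detected and open points were not, bars are the standard error over beads, and levels of different probes are not comparable. Every probe of Fzd1 and Lrp6 and 4 of the 5 Tcf7l2 probes are open on all arrays, and on the unnormalized scale both Fzd6 probes lie higher on both cKO arrays than on either Control array.

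Frizzled receptors bind Wnt ligands at the cell surface. FZD6 is best known for planar polarity, as in the ordering of hair follicles. Its log2 signal, averaged over both probes, was 6.96 in cKO A and 6.79 in cKO B, against 6.23 in Control A and 6.11 in Control B. Both cKO lenses were higher than both Control lenses. The means were 6.88 ± 0.12 (SD, n = 2) in cKO and 6.17 ± 0.08 (SD, n = 2) in Control lenses, and the log2 fold change was 0.71 ± 0.14 (SE), with a 95% interval of 0.37 to 1.05 and a limma adjusted p of 0.027. Separation of this kind was common on these arrays: cKO and Control values were free of overlap for 5 of the 7 tested members and for 62.3% of all genes tested.

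The single Fzd6 probes gave the same direction with unequal sizes. Probe 4180091 had unnormalized intensities of 166.3 ± 10.1 and 185.4 ± 10.8 (SE over beads) on the cKO arrays A and B, and of 87.2 ± 4.22 and 69.1 ± 5.12 on the Control arrays A and B. Its log2 fold change after normalization was 0.83 ± 0.15 (SE, limma adjusted p = 0.018), and it was called, among 11.5% of the 16262 retained probes. Probe 2750053 had intensities of 210.8 ± 10.8 and 176.1 ± 10.03 on the cKO arrays, and of 104.7 ± 9.14 and 80.9 ± 11.7 on the Control arrays, where it was read on 20 and 23 beads. Its log2 fold change was 0.59 ± 0.18 (SE, limma adjusted p = 0.080), and it was not called on its own. Because the probes overlap, they are not independent readings of Fzd6.

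The Fzd6 call rested on all arrays but 1. Leaving out cKO A gave 0.61 (adjusted p = 0.143), leaving out cKO B gave 0.77 (adjusted p = 0.126) and leaving out Control B gave 0.67 (adjusted p = 0.096), none of which was a call, while leaving out Control A gave 0.78 and kept the call (adjusted p = 0.042). It was also lost with no background correction (0.54) and with a background offset of 50 (0.51), where the adjusted p stayed at 0.022 and 0.023 and the fold change fell under the threshold, with the brighter probe alone (0.59, adjusted p = 0.072) and with no detection filter (0.71, adjusted p = 0.061). With no normalization between arrays the log2 fold change was 1.44, at a median of 0.57 over all genes. Relative to the median of all genes under the same setting, Fzd6 lay between 0.51 and 0.87 over the settings with all 4 lenses, and its adjusted p lay between 1.68e-05 and 0.072.

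FZD3 is a close relative of FZD6 and guides axons as part of the planar branch. Its log2 signal was 5.70 in cKO A and 5.74 in cKO B, against 5.59 in Control A and 5.60 in Control B. The cKO lenses were higher by a small margin without overlap, and the log2 fold change of 0.13 ± 0.13 (SE, 95% interval -0.19 to 0.44) did not pass (limma adjusted p = 0.558). When the arrays were brought to a shared median of their detected probes the value was -0.035, and with no normalization between arrays it was 0.73 and was called. One more probe that RefSeq assigns to Fzd3, named D930050A07Rik in the files, is outside the rule, with intensities of 58.9 and 67.9 in cKO lenses against 56.0 and 45.1 in Control lenses, and it was not detected on Control B.

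Fzd1, a receptor of the canonical branch, was read by 1 probe with unnormalized intensities of 46.5 and 46.7 in cKO lenses and 52.1 and 40.0 in Control lenses. It was detected on 0 of 4 arrays, with detection p-values between 0.104 and 0.554. No level can be given for it in either group.

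LRP5 and LRP6 are the co-receptors of the canonical branch, and mutations of LRP5 are known from eye and bone disease. Of the 4 Lrp5 probes, a pair shares 48 bases. Only probe 6510091 was detected, on cKO B alone, with intensities of 47.8 and 63.4 in cKO lenses against 49.0 and 39.4 in Control lenses. Lrp6 was read by 1 probe, with intensities of 51.0 and 52.0 in cKO lenses against 41.3 and 41.4 in Control lenses, and it was detected on 0 arrays. One more probe, whose transcript RefSeq assigns to Lrp6, stands in the files under C030016K15Rik and is outside the rule. Its intensities were 60.2 and 67.3 in cKO lenses against 63.3 and 51.8 in Control lenses, and it was detected on all 4.

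Sfrp1 and Sfrp2 encode secreted Frizzled-related proteins, which carry a Frizzled-like domain and bind Wnt ligands outside the cell. The log2 signal of Sfrp1 was 11.77 in cKO A and 11.57 in cKO B, against 11.82 in Control A and 12.03 in Control B. Both cKO lenses were lower, cKO A by a small margin, and the log2 fold change was -0.25 ± 0.15 (SE, 95% interval -0.62 to 0.11, limma adjusted p = 0.303). The 2 Sfrp1 probes gave close values of -0.26 and -0.25. The direction depended on the scaling, since the unnormalized intensities of probe 1070670 were higher on the cKO arrays (6231 and 5894) than on the Control arrays (4514 and 4264), and the log2 fold change with no normalization between arrays was 0.51. Relative to the median of all genes under the same setting, Sfrp1 lay between -0.36 and -0.062 where every lens was kept. With a lens left out, its log2 fold change ran from -0.36 without cKO A to -0.14 without Control B.

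Sfrp2 lay close to background. Its only probe had unnormalized intensities of 57.3 and 53.0 in cKO lenses against 55.9 and 51.3 in Control lenses. It was not detected on cKO B, where its detection p-value was 0.081. The log2 signal was 4.74 and 4.52 in cKO lenses and 4.77 and 4.95 in Control lenses, with the lowest Control value just above the highest cKO value. The log2 fold change of -0.23 ± 0.15 (SE, 95% interval -0.60 to 0.13) did not pass (limma adjusted p = 0.337), except at a shared median of the detected probes, where it was -0.76 (adjusted p = 0.023). Over the alternatives with all 4 lenses the adjusted p ran from 0.023 to 0.988. Without 1 lens the log2 fold change lay between -0.34 and -0.11.

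DKK3 belongs to the Dickkopf family of secreted proteins, whose other members block LRP5 and LRP6. Its own action on Wnt signalling is less clear. The log2 signal of Dkk3 was 11.55 in cKO A and 11.68 in cKO B, against 11.65 in Control A and 11.57 in Control B. The groups overlapped, and the log2 fold change was 0.00 ± 0.14 (SE, 95% interval -0.32 to 0.33, limma adjusted p = 0.985). The 3 probes gave values of -0.02, 0.14 and -0.11, none of them called. With no normalization between arrays the value for the gene was 0.70 and was called.

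**Figure D2:**
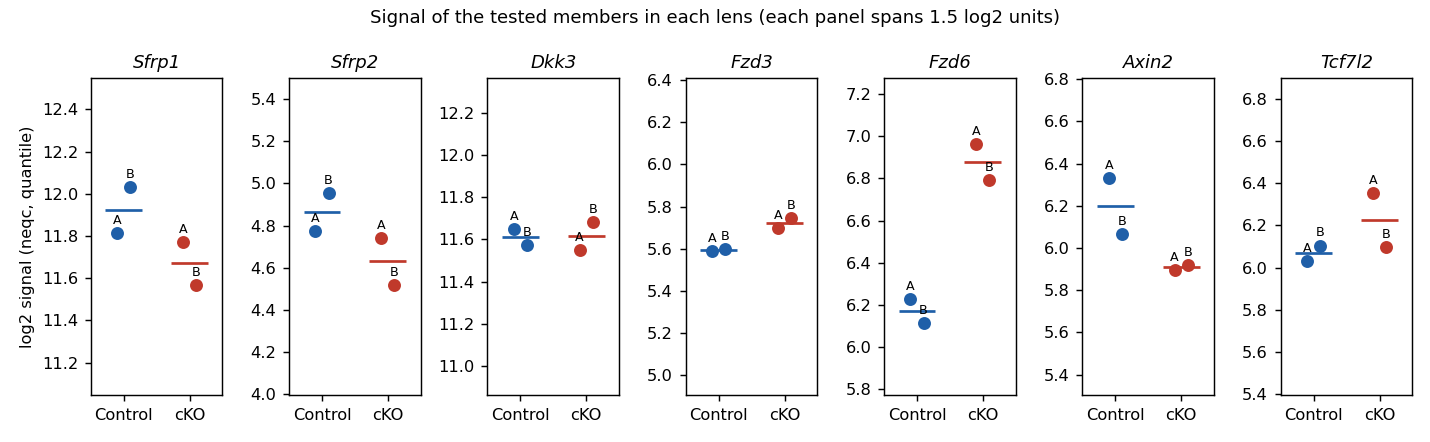
Normalized log2 signal of the 7 tested members in each lens, with Control lenses in blue, cKO lenses in red, letters for the replicates and a line at each group mean. Every panel spans 1.5 log2 units around the midpoint of the group means, and the gap between the groups is widest for Fzd6, with cKO lenses at 6.96 and 6.79 and Control lenses at 6.23 and 6.11.

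AXIN2 is a scaffold of the destruction complex, and its gene is widely used as a readout of canonical signalling because β-catenin activates it. The log2 signal of Axin2 was 5.90 in cKO A and 5.92 in cKO B, against 6.33 in Control A and 6.06 in Control B. Both cKO lenses were lower, and Control A and B lay further apart than the cKO lenses did. The log2 fold change was -0.29 ± 0.15 (SE, 95% interval -0.65 to 0.07, limma adjusted p = 0.235), and with no normalization between arrays it was 0.38. Relative to the median of all genes under the same setting, it lay between -0.32 and -0.19 where every lens was kept. With a lens left out, the log2 fold change ran from -0.44 without Control B to -0.16 without Control A.

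TCF7L2 is a transcription factor that binds DNA with β-catenin. The detected probe, 4250328, gave log2 signals of 6.36 in cKO A and 6.10 in cKO B, against 6.03 in Control A and 6.10 in Control B. The groups overlapped, since cKO B lay just below Control B, and the log2 fold change of 0.16 ± 0.15 (SE, 95% interval -0.20 to 0.52) did not pass (limma adjusted p = 0.508). The other 4 probes, among them the one that shares 34 bases with it, had unnormalized intensities of 36.0 to 52.9 and were detected on 0 arrays, so that the level given for Tcf7l2 is that of 1 probe. With no normalization between arrays it was called at 0.85. Leaving out 1 lens gave log2 fold changes from 0.03 to 0.28.

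**Figure D3:**
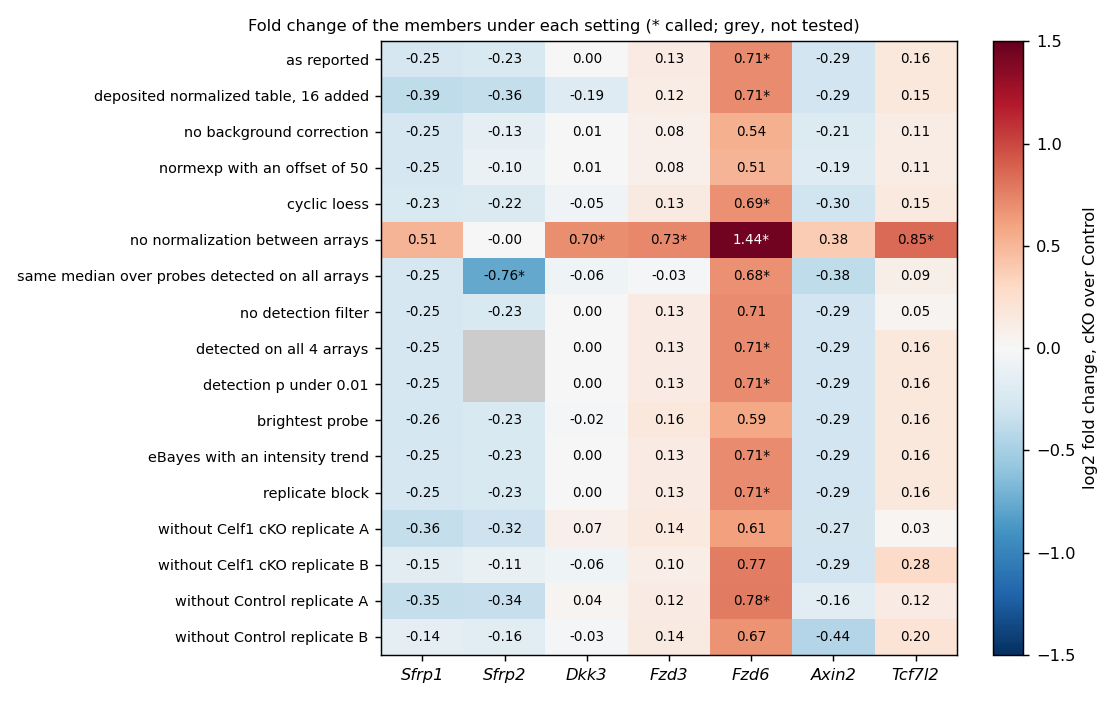
Log2 fold change of the 7 tested members (columns) as reported and under each alternative (other lines), on a colour scale from -1.5 to 1.5, where a star marks a call and grey marks a gene not tested. Fzd6 is positive throughout, from 0.51 to 1.44, and the absence of normalization between arrays moves all members upward, Sfrp1 to 0.51 and Axin2 to 0.38.

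The rest of the pathway was read from a list of 106 further Wnt genes, of which 105 had a probe by name and 54 were tested. Of these 54 genes, 1 was called elevated and 3 were called reduced, beside 6.02% and 5.63% of all genes. The elevated gene, Apc, passed the detection filter through the cKO arrays alone, so that the filter itself favoured elevation. With detection required on all 4 arrays, 0 were elevated and 3 reduced. The split moved with the scaling. It was 27 elevated and 0 reduced with no normalization between arrays, and 0 elevated and 8 reduced at the shared median of the detected probes. The median log2 fold change of the 54 genes was -0.05 and the median size was 0.25, the same size as over all genes. The 4 calls were Apc, Ctnnb1, Prickle1 and Daam2. The groups did not overlap for 31 of the 54, beside 62.3% of all genes.

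No Wnt ligand was called among 5 of 19 tested. Wnt7b had log2 signals of 10.22 and 9.90 in cKO lenses and of 10.38 and 10.64 in Control lenses, a difference of -0.45 ± 0.17 (SE, limma adjusted p = 0.128). Wnt7a, its close relative, had a value of -0.22 ± 0.16 (SE), and Wnt5a, Wnt5b and Wnt16 lay between -0.09 and 0.06. None of Porcn and Wls, which modify and carry ligands for secretion, and the agonist Rspo1 was called, with values of -0.32, 0.15 and -0.26.

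No other receptor was called among 5 of 14 tested. Ryk, a receptor with an inactive kinase domain, had an adjusted p of 0.045 but a log2 fold change of -0.54 ± 0.13 (SE), inside the fold threshold, and its signals were 7.85 and 7.81 in cKO and 8.37 and 8.37 in Control lenses. Fzd2, Fzd5, Fzd7 and Ptk7 had log2 fold changes of -0.30, 0.35, -0.12 and 0.25. Of the other secreted and membrane inhibitors, 5 of 16 were tested and 0 called. Notum, an enzyme that removes the lipid from Wnt ligands, was above background in cKO lenses only. Its mean cKO signal exceeded that of Control at least 1.53-fold, a bound without sampling error, and it did not pass (limma adjusted p = 0.077).

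Among 13 of 18 cytoplasmic components tested, 1 was elevated and 1 reduced, beside 6.02% and 5.63% of all genes. These counts are too small to be read as a result about the components. Ctnnb1, which encodes β-catenin, was reduced, with log2 signals of 7.30 and 7.11 in cKO lenses and of 7.90 and 8.04 in Control lenses, which differed by -0.77 ± 0.15 (SE, limma adjusted p = 0.024). Its 4 probes gave -0.35, -0.59, -0.60 and -1.53, and 1 of them passed an adjusted p of 0.05. The call was lost with the brightest probe alone (-0.35), with an offset of 50 (-0.574, just inside the threshold), with no detection filter (adjusted p = 0.063) and when cKO A, cKO B or Control B was left out (adjusted p of 0.068, 0.175 and 0.093), and with no normalization between arrays the value was -0.04.

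Apc, the scaffold that binds β-catenin in the destruction complex, was elevated by 1 of its 4 probes, with the other 3 detected on no array. Its log2 signal was 5.35 and 5.24 in cKO lenses and 4.602 and 4.42 in Control lenses, where it was not above background. The cKO signal exceeded that of Control at least 1.47-fold (limma adjusted p = 0.021). The call was lost without Control B (adjusted p = 0.076), at a shared median of the detected probes (0.31), with an offset of 50 (0.37), with no background correction (0.44) and with no detection filter (0.13). Apc was not retained without cKO A, without cKO B or with detection required on all 4 arrays, so that it was not tested there. Nkd2, an inhibitor of Dishevelled, was above background in cKO lenses only. By the same bound its mean was at least 1.498-fold over Control, and it did not pass (adjusted p = 0.053). Gsk3b, Axin1 and Dvl1 had values of -0.13, -0.27 and 0.19.

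Among nuclear components, 12 of 16 were tested and 0 called. The co-repressor Tle1 had the largest value, 0.54 ± 0.16 (SE, limma adjusted p = 0.070), and Ctnnbip1, which keeps β-catenin from TCF factors, had -0.39 ± 0.14 (SE, adjusted p = 0.114). Tcf7l1, the relative of Tcf7l2 that mostly represses, had -0.06. Of 14 genes listed as targets of canonical signalling, 5 were tested and 0 called, some of which also stand under other roles. Ccnd1 and Cd44 had values of -0.01 and 0.28, and Lef1, Sp5, Lgr5 and Myc did not reach the test.

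Among planar polarity genes, 8 of 10 were tested, 2 were reduced and 0 elevated, beside 5.63% and 6.02% of all genes, a count too small to be read as a result about the planar branch. Prickle1, a cytoplasmic protein of the planar branch, had log2 signals of 8.49 and 8.13 in cKO lenses and of 9.13 and 9.47 in Control lenses. As reported, its change of -0.99 ± 0.19 (SE, limma adjusted p = 0.023) was the largest reduction on the Wnt list. Daam2 lay lower at the shared median of the detected probes (-1.05 against -0.90) and with no normalization between arrays (-0.29 against -0.14). Both Prickle1 probes gave close values, -0.95 and -1.03. The call was lost when cKO B or Control B was left out (adjusted p of 0.146 and 0.095) and with no detection filter (adjusted p = 0.098), and with no normalization between arrays the value was -0.14.

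Daam2, a formin that links Dishevelled to actin, had log2 signals of 4.65 and 4.58 in cKO lenses and of 5.09 and 5.36 in Control lenses. It was reduced, by a log2 difference of -0.61 ± 0.15 (SE, limma adjusted p = 0.047), close to the lowest signals that counted as detected, which lay between 4.56 and 4.76 on the 4 arrays. The call was lost when cKO A, cKO B or Control B was left out (adjusted p of 0.172, 0.291 and 0.123), with no background correction (-0.34), with an offset of 50 (-0.29), with no normalization between arrays (-0.29), with no detection filter (-0.19) and with an intensity trend in eBayes (adjusted p = 0.0501). It was not retained, and so not tested, at a detection p under 0.01. Daam2 rests on 1 of its 2 probes, and the other, which was detected on cKO A alone, had higher unnormalized intensities in cKO lenses (58.1 and 50.4) than in Control lenses (46.8 and 43.2). Celsr1, Vangl2, Daam1 and Prickle2 had values of -0.42, -0.14, -0.31 and 0.33 and were not called.

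**Figure D4:**
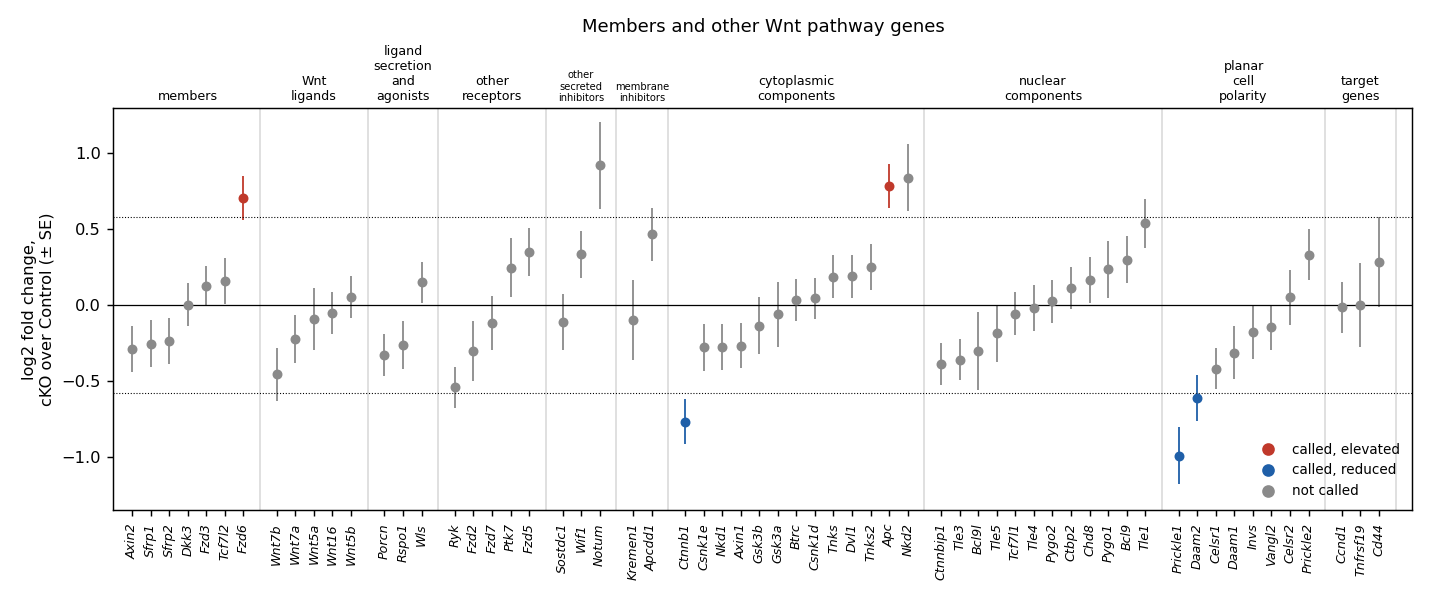
Log2 fold change (cKO over Control, bars are SE) of the 7 tested members and the 54 tested genes of the Wnt list, grouped by role and ordered by value, with the fold threshold of 0.58 dotted. Fzd6 and Apc are called elevated in red, Ctnnb1, Prickle1 and Daam2 are called reduced in blue, and the other genes in grey were not called. Apc, Nkd2, Notum and Wif1 were not above background in Control lenses, so that their plotted values are fitted differences and not exact fold changes.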

How the data were processed

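Per the labels, RNA of lenses at postnatal day 6 was isolated with a column kit and hybridised to 1 array each. The authors deposited a table of unnormalized and a table of rank-invariant normalized signal intensity, with a detection p-value, bead number and bead standard error for each probe. The 45281 probes of each table were read, and 18 with shifted cells were left out. Genes were named through RefSeq (GRCm38.p6), with 8350 probes keeping the symbol of the files. The members, the Wnt and marker lists and the tests were chosen with earlier results of these data known.

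Unnormalized intensity was corrected and quantile normalized with neqc (limma 3.58.1, R 4.3.3; offset 16). Probes detected (p under 0.05) on at least 2 arrays were kept (16262), log2 values were averaged over the probes of a gene, and lmFit with eBayes compared the groups, two-sided, with Benjamini-Hochberg adjustment over 11519 genes. The thresholds follow the study, whose edgeR test for counts was not applied, since the values are intensities. Named are the 10 members, Celf1, Ctnnb1 and Wnt list genes that were called. Others named as examples of their role, and the markers, were chosen after their values were seen. For a gene detected on no array of a group, the bound sets the brighter mean against the higher of the dim value and the lowest detected signal. The bound holds no sampling error and applies to the setting reported. Nothing says that lenses came from separate litters, so that p-values do not extend beyond these 4 lenses, and their number limits the precision. Each limma SE and p-value uses a variance that eBayes moderates with that of all genes tested, not the spread of these lenses alone. For Fzd3 the SD was 0.033 in cKO and 0.0045 in Control lenses, while the SE was 0.13. An exact permutation test with 2 against 2 cannot go under 0.333. On simulated data for cKO against Control (11519 genes, 200 changed, 5 simulations), the share of changed genes recovered was 56.4% for a log2 change of 1. It was 79.1% for 1.5 and 78.5% for 2.5, and 6.55% of calls were false. The simulated arrays did not differ in brightness, fewer genes changed than the 1342 called here, and no change under 1 was tried. Figures were drawn with matplotlib 3.10.9 in Python 3.11.15.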

Additional observations from a re-analysis of the deposited data

How the results depend on the processing

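The replicate letters were not taken as pairs, since no label says that they pair lenses. The correlation of A minus B between the groups was -0.011 across genes, which cannot exclude a pairing. With the letter as a replicate block, 1684 genes, 1 member and 6 Wnt list genes were called, against 1342, 1 and 4. With an offset of 50 the counts were 789, 0 and 1, with no normalization between arrays 5790, 4 and 27, with the same median over detected probes 2691, 2 and 8, and with no detection filter 179, 0 and 0. With no background correction they were 908, 0 and 2, and with the brightest probe 1517, 0 and 6. Leaving out 1 lens gave 158 to 1364 genes, 0 to 1 members and 0 to 4 Wnt list genes. A lone lens was then assumed to vary like the other group. Fzd6 stayed called in 9 of 16 alternatives and was positive in all 16. Reversed values were 0.51 for Sfrp1 and 0.38 for Axin2 with no normalization between arrays, -0.035 for Fzd3 with the same median, and for Dkk3 -0.19 with the deposited normalized table, -0.047 with cyclic loess, -0.060 with the same median and -0.015 with the brightest probe, beside -0.059 to 0.074 without 1 lens. Over the alternatives with all 4 lenses, the adjusted p ran from 2.80e-04 to 0.397 for Apc, 0.013 to 0.883 for Ctnnb1, 0.0086 to 0.588 for Prickle1 and 0.0085 to 0.500 for Daam2. The causes were not tested, beyond the fewer arrays or the larger number of genes tested in those settings. The remaining alternatives kept these 3 counts within 1.5 times. Slide as a block was not run, since no slide was read from the files. Signal near background limits the fold change that could be shown for genes read by such probes, as for Sfrp2, Daam2 and Apc.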
